A study of Arabidopsis thaliana with 6 samples.

Results

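The genes described here are 55 protein-coding genes of the Arabidopsis thaliana chloroplast chromosome. They are all genes for which the platform annotation lists a probe set with exactly 1 chloroplast-encoded gene, leaving out the ndh and rpo genes, and each had 1 probe set among the 22746 tested. By the stem of the symbol they comprised 5 psa, 15 psb, 6 pet, 6 atp, 8 rps, 7 rpl and 2 ycf genes and 6 others (matK, rbcL, accD, cemA, clpP and ccsA). No member was removed by a filter on low values. Their mean intensities per genotype ran from 41.9 to 32962 on the linear scale of the deposited values, where the median probe set of every array stood at 192.9.

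Transcript levels were measured on Affymetrix ATH1 arrays in whole seedlings of the accession Wassilevskija, 3 arrays of the wild type and 3 of the atr8 mutant, which carries a mutation in the long non-coding RNA gene AtR8. All seedlings, 10 days old, had spent 6 h in water purged with air, a low-oxygen stress, followed by 22 h of recovery on agar medium, so both genotypes carried the same treatment. Neither the nature of the atr8 allele nor the number of mutant lines is stated in the labels, and no probe set was named for AtR8. Of 5 leaf and 4 root markers listed for tissue, some had no probe set that the annotation lists for that gene alone. The leaf genes RCA and LHCB4.1 and the root hair genes EXPA7 and EXPA18 had such a probe set, and all 4 gave signal in both genotypes. RCA read 30822 to 33207 in the wild type and 16016 to 21655 in the mutant, and EXPA7 202.7 to 312.6 and 77.2 to 180.8. All 4 had estimates below 0 in the mutant, with log2 differences of −0.85 ± 0.21 for RCA, −1.06 ± 0.19 for LHCB4.1, −0.86 ± 0.35 for EXPA7 and −0.62 ± 0.30 for EXPA18, and none passed the threshold (limma adjusted p = 0.0900 to 0.413).

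The chloroplast keeps a small genome of its own, a remnant of its cyanobacterial ancestor. It encodes the core subunits of both photosystems, the cytochrome b/f complex, the ATP synthase and Rubisco, together with part of the ribosome that translates them, while the nucleus encodes the other subunits. Most chloroplast genes are transcribed in groups from shared promoters by a plastid-encoded bacterial-type polymerase and a nuclear-encoded phage-type polymerase, and the long transcripts are then cut, spliced and edited, so that RNA stability sets much of the level of each mRNA. Chloroplast mRNAs mostly lack the long poly(A) tails of nuclear mRNAs, and how they were primed for labelling is not given in the sources used here. In whole seedlings, fewer green cells and less chloroplast RNA per cell cannot be told apart.

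Mutant replicates 2 and 3 stood apart before any gene was compared. On these arrays a pair of actin control probe sets had a 3′ to 5′ signal ratio of 28.9 and 19.6, against 2.13 on mutant replicate 1 and 2.17 to 2.66 in the wild type. Further control pairs, some of bacterial genes, are given below. Across the 55 members, log2 intensities of mutant replicate 1 correlated with the wild-type arrays at 0.974 to 0.981, close to the 0.970 to 0.986 among the wild-type arrays themselves. Mutant replicate 2 correlated with the wild type at 0.875 to 0.892 and mutant replicate 3 at 0.929 to 0.940, while both correlated with each other at 0.975. These are descriptions over genes, which share the array and are not replicates. The larger differences below are therefore given with mutant replicate 1 apart, and the part of the lost 5′ signal in them was not tested.

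**Figure D1:**
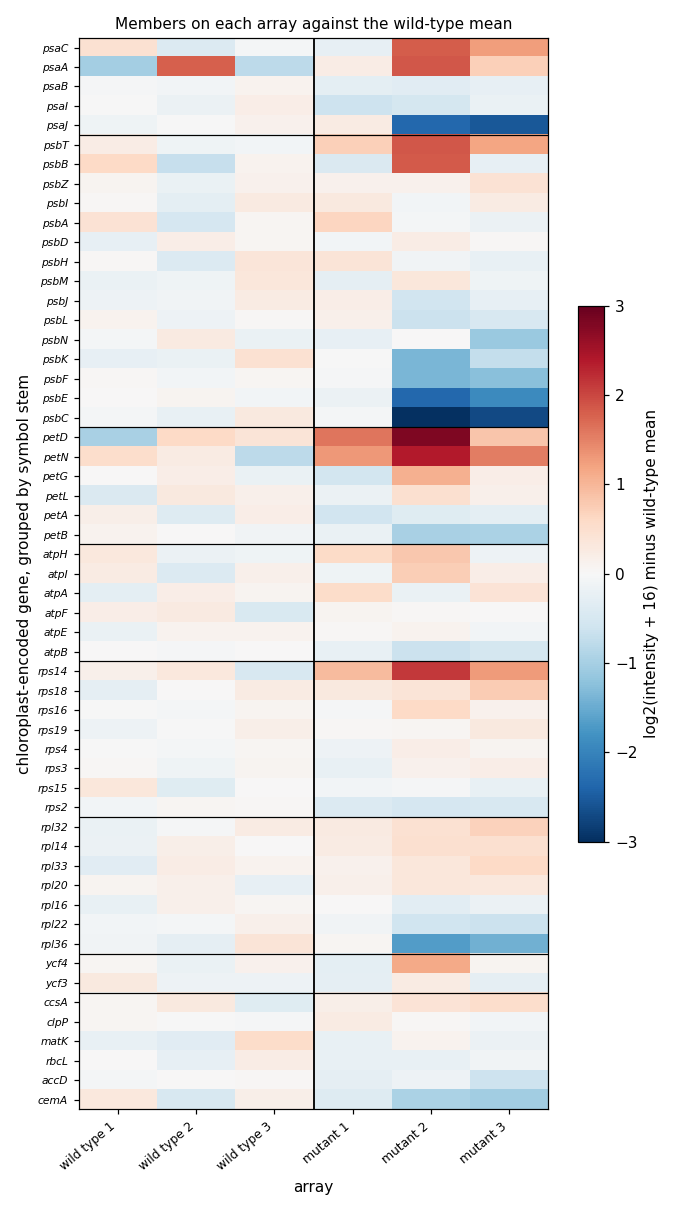
Each row is a chloroplast-encoded gene, grouped by symbol stem, and each column an array; colour gives log2(intensity + 16) minus the mean of the 3 wild-type arrays. The strong colours lie mostly on mutant replicates 2 and 3, where psbC, psaJ and psbE are the darkest blue, while petN, petD, psbT and rps14 are red on all 3 mutant arrays.

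The question put to the data was how the levels of these transcripts differ between the genotypes after stress and recovery. At an adjusted p under 0.05 by limma, 0 of the 55 genes were higher and 0 lower in the mutant, where 0.712% and 0.207% of all probe sets were. Adjusted p-values ran from 0.186 to 0.985. At an unadjusted p under 0.05 there were 8 members (14.5%, against 14% of all probe sets), 4 of them higher and 4 lower, where 7.11% of all probe sets were higher and 6.92% lower. Estimates were spread about 0, with 31 above and 24 below (50.5% of all probe sets had estimates below 0), and the median log2 difference, mutant minus wild type, was 0.04, against −0.01 over all probe sets. For 31 of the 55 genes the 95% interval of the difference lay within 1 on the log2 scale on either side of 0, that is within a 2-fold change.

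On mutant replicate 1 the median absolute difference from the wild-type mean was 0.23 over the members and 0.41 over all probe sets, on the log2 scale. On mutant replicate 2 it was 0.47 over the members and 0.51 over all probe sets, and on mutant replicate 3 it was 0.31 and 0.49. These values depend on brightness, and 33 members have a mean intensity of 1000 or more. In that bright part mutant replicate 1 gave 0.21 over the members and 0.21 over all probe sets, and in the dim part 0.29 and 0.46. The mean of mutant replicates 2 and 3 gave 0.41 and 0.34 in the bright part and 0.51 and 0.46 in the dim part. Of the members, 15 on mutant replicate 2 and 11 on mutant replicate 3 lay at least 2-fold from the wild-type mean, that is 27.3% and 20%, against 23.2% and 21.9% of all probe sets. There were 2 on mutant replicate 1, petN and petD, or 3.64% against 18.8% of all probe sets. Each wild-type array, set against the mean of the other 2 of its group, also had 2 such members, or 3.64%. Over all probe sets the shares for wild-type replicates 1, 2 and 3 were 19.7%, 17.1% and 16.8%. The shares per array were not split by brightness.

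Photosystem II, which splits water at the start of photosynthetic electron transport, had 15 members. Its psbC, which encodes an inner antenna protein of the photosystem, had the largest negative estimate of all members. Its intensity was 2128, 1887 and 2735 in wild-type replicates 1, 2 and 3 and 2134, 247.1 and 327.6 in the mutant. Mutant replicate 1 lay inside the wild-type range and the other mutant arrays far below it. The log2 difference was −1.95 ± 0.81 (SE, n = 3 arrays per genotype, limma adjusted p = 0.359), made of −0.06 on mutant replicate 1 and −2.90 on replicates 2 and 3, which is 7.45-fold.

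The same split was seen in psbE and psbF, which encode the subunits of the cytochrome bound to the photosystem II reaction centre. For psbE the wild-type arrays read 5193, 5469 and 4854 and the mutant arrays 4569, 988.5 and 1358. All mutant arrays lay below the wild type, as in 11% of all probe sets, but mutant replicate 1 only just. The log2 difference was −1.49 ± 0.57 (adjusted p = 0.337), with −0.18 on mutant replicate 1 and −2.14 on replicates 2 and 3. For psbF the wild-type arrays read 12032, 11082 and 12230 and the mutant arrays 11475, 4527 and 4938. Its difference was −0.89 ± 0.39 (adjusted p = 0.383), with −0.04 on mutant replicate 1 and −1.31 on the others.

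Other small photosystem II subunits differed less or in the other direction. The psbT probe set read 137.4, 104.1 and 109.8 in the wild type and 202.3, 462.5 and 282.4 in the mutant. These groups did not overlap, and the log2 difference was 1.25 ± 0.33 (adjusted p = 0.190), or 0.72 on mutant replicate 1. The genes of the reaction-centre proteins themselves stood near 0, psbD at 0.05 ± 0.21 and psbA at 0.14 ± 0.35 on the log2 scale, or −0.08 and 0.65 on mutant replicate 1. For psbA the 95% interval ran from −0.73 to 1.00. The gene of the other inner antenna protein, psbB, varied widely, from 101.4 to 268.7 in the wild type and from 124.9 to 656.9 in the mutant. The member with the largest p was psbH, at 0.02 ± 0.29 (adjusted p = 0.985).

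**Figure D2:**
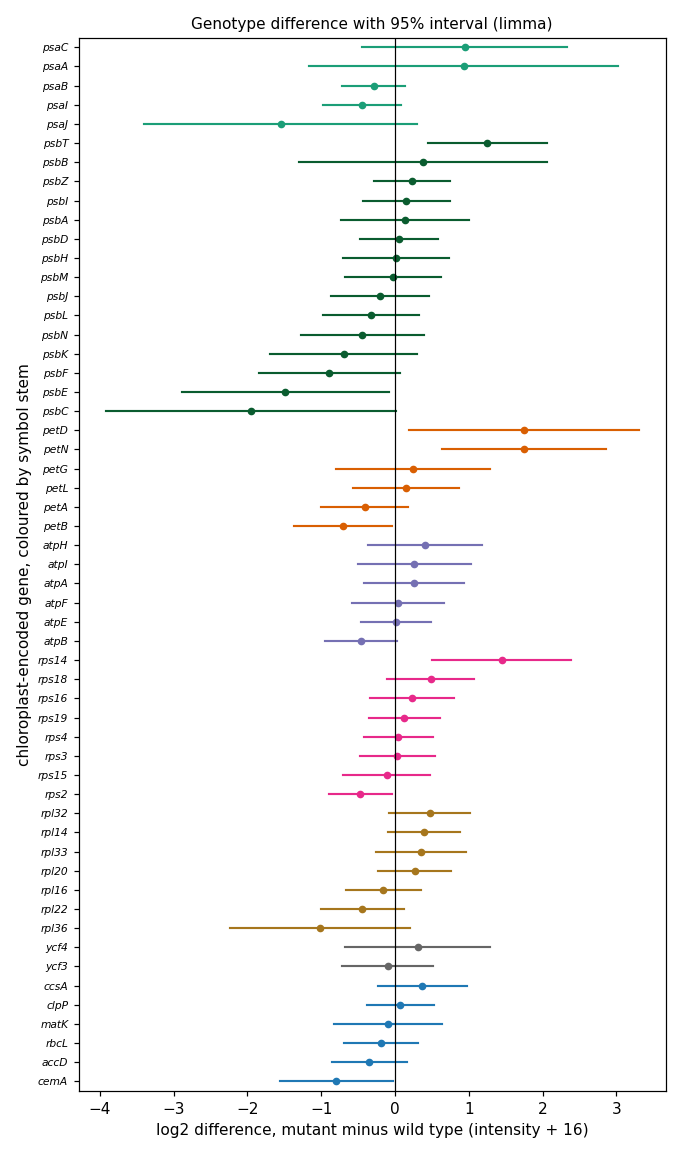
Each point is the log2 difference of a gene, mutant minus wild type on log2(intensity + 16), and each bar its 95% interval from limma with 3 arrays per genotype, coloured by symbol stem. The estimates run from −1.95 (psbC) to 1.75 (petN and petD), and no member passed the threshold after adjustment over all probe sets.

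Photosystem I, which passes electrons on to ferredoxin, had 5 members. The small subunit gene psaJ read 1562, 1707 and 1887 in the wild type and 2036, 324.4 and 279 in the mutant. Mutant replicate 1 was the highest of all 6 arrays, and the other mutant arrays were the lowest. The log2 difference of −1.55 ± 0.76 (adjusted p = 0.424) thus joins 0.25 on mutant replicate 1 with −2.45 on replicates 2 and 3.

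The other photosystem I genes showed smaller or noisier differences. The reaction-centre gene psaB read 14327, 13839 and 15582 in the wild type and 11890, 11596 and 12316 in the mutant, with no overlap. Its log2 difference was −0.29 ± 0.18 (adjusted p = 0.514), and the value on mutant replicate 1 alone was also −0.29. The small subunit gene psaI likewise did not overlap, at 2587 to 3355 in the wild type and 1901 to 2529 in the mutant, with −0.45 ± 0.22 (adjusted p = 0.418) and −0.62 on mutant replicate 1. For psaC, whose product carries the terminal iron-sulphur clusters, the wild-type arrays read 115.2 to 225.5 and the mutant arrays 131.9, 597.1 and 401.2. The psaA probe set was dim and variable, from 2.73 to 116.8 in the wild type.

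The cytochrome b/f complex, which links the photosystems, held both largest positive estimates. The small subunit gene petN read 231.2, 186.4 and 82.8 in the wild type and 406.7, 873.6 and 478.8 in the mutant, where every array lay above the wild type. It stood 3.35-fold higher, on the scale of the intensity + 16, with a log2 difference of 1.74 ± 0.46 (adjusted p = 0.186) and 1.31 on mutant replicate 1. For petD, which encodes the subunit IV of the complex, the wild-type arrays read 16.2, 80.2 and 67.5 and the mutant arrays 177.3, 425.6 and 98.2. All mutant arrays again lay above, with 1.75 ± 0.64 (adjusted p = 0.313) and 1.60 on mutant replicate 1. The cytochrome b gene petB went the other way, with 6221, 5765 and 5327 in the wild type and 4994, 2921 and 2995 in the mutant. Its log2 difference was −0.71 ± 0.27 (adjusted p = 0.334), or −0.21 on mutant replicate 1. The cytochrome f gene petA stood at −0.41 ± 0.24, and petL at 0.15 ± 0.29. The higher estimates of petN and petD, like those of psbT and rps14, came from dim probe sets. The wild-type means of petN, petD, psbT and rps14 were 166.8, 54.6, 117.1 and 111.2, under the array median of 192.9. Wild-type replicate 1 of petD read close to the 16 added before log2.

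The ATP synthase and Rubisco genes had log2 differences between −0.46 and 0.41. The atpB gene, for the catalytic beta subunit, read 33207, 32357 and 33207 in the wild type and 28429, 20957 and 22869 in the mutant, without overlap. Its log2 difference was −0.46 ± 0.20 (adjusted p = 0.379), or −0.21 on mutant replicate 1. Its neighbour atpE, for the epsilon subunit, stood at 0.02 ± 0.19, with a 95% interval from −0.46 to 0.49. The other 4 atp genes had estimates from 0.04 to 0.41, among them atpH at 0.41 ± 0.32, atpI at 0.26 ± 0.31 and atpA at 0.25 ± 0.28. The gene of the large Rubisco subunit, rbcL, read 2672, 2229 and 3099 in the wild type and 2250, 2254 and 2438 in the mutant. These groups overlapped, and the difference was −0.19 ± 0.21 with an interval from −0.69 to 0.31, or −0.23 on mutant replicate 1.

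**Figure D3:**
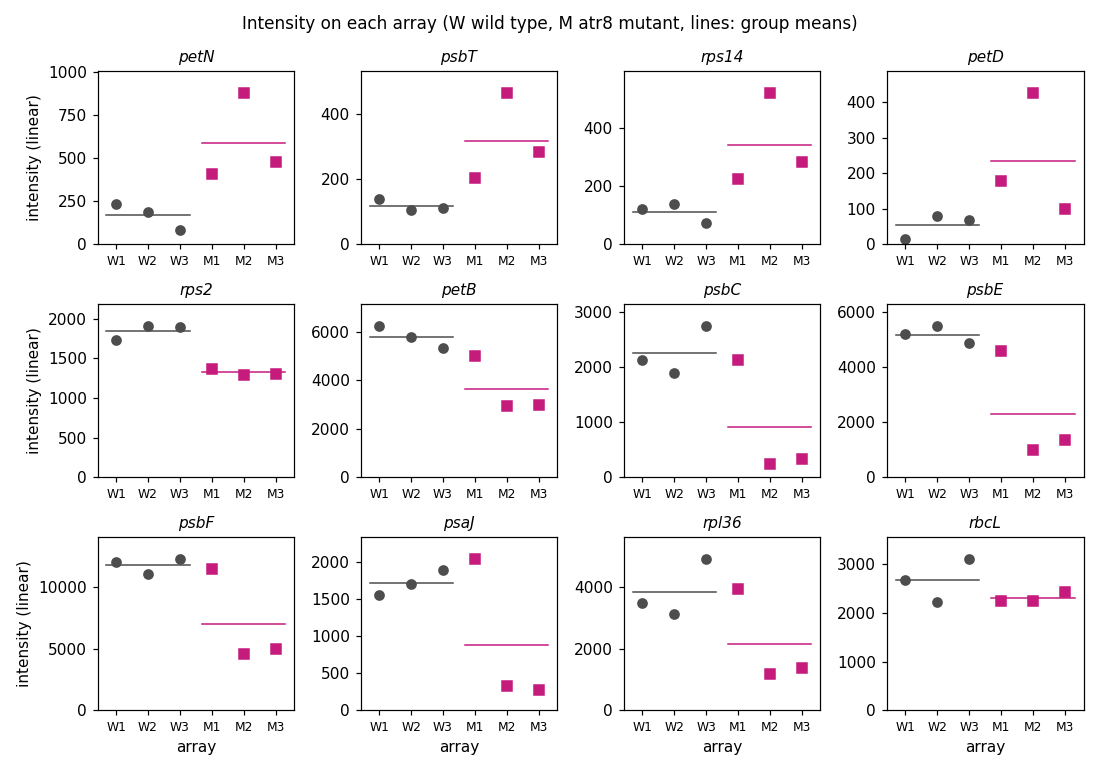
Each panel shows a gene's linear intensity on the 3 wild-type arrays (W1 to W3, circles) and the 3 mutant arrays (M1 to M3, squares), with lines at the group means and every axis starting at 0. In psbC, psbF, psaJ and rpl36 mutant replicate 1 is level with or above the wild type while M2 and M3 are low, whereas in petN, petD, psbT and rps14 all 3 mutant arrays are high.

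The 15 ribosomal protein genes had a median log2 difference of 0.13, with 10 estimates above 0 and 5 below. The small-subunit gene rps14 read 121.3, 139.1 and 73.2 in the wild type and 223.5, 520 and 284.6 in the mutant. No array overlapped, and the difference was 1.45 ± 0.38 (adjusted p = 0.191), or 0.95 on mutant replicate 1. For rps2, another small-subunit gene, the wild-type arrays read 1725, 1901 and 1887 and the mutant arrays 1370, 1286 and 1306. Here the 3 mutant arrays were alike. The difference was −0.47 ± 0.17 (adjusted p = 0.321), with −0.42 on mutant replicate 1 and −0.50 on the others. The large-subunit gene rpl36 repeated the pattern of psbC, with 3507, 3125 and 4910 in the wild type and 3932, 1170 and 1386 in the mutant. It stood at −1.02 ± 0.50 (adjusted p = 0.426), with 0.06 on mutant replicate 1 and −1.56 on replicates 2 and 3.

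Smaller differences without overlap were found in 4 further ribosomal genes. Such separation is common at their brightness. Of all probe sets with a mean intensity of 1000 or more, 21.1% had all mutant arrays above the wild type and 21.2% all below. Their log2 differences were 0.47 ± 0.22 for rpl32, 0.48 ± 0.24 for rps18, 0.40 ± 0.20 for rpl14 and −0.44 ± 0.23 for rpl22, with adjusted p-values from 0.415 to 0.447. Their values on mutant replicate 1 were 0.26, 0.29, 0.24 and −0.10. The genes rpl16, rps16 and rps3 stood at −0.16, 0.23 and 0.03.

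Of the remaining genes, cemA, for an inner envelope protein, had the smallest p. It read 1180, 673.7 and 1082 in the wild type and 725.2, 485.2 and 451.4 in the mutant, with an overlap through wild-type replicate 2 and mutant replicate 1. Its difference was −0.79 ± 0.31 (adjusted p = 0.344), with −0.38 on mutant replicate 1 and −0.999 on replicates 2 and 3. The fatty acid synthesis gene accD, for a subunit of acetyl-CoA carboxylase, had groups that did not overlap, at 506.3 to 537.7 in the wild type and 334.5 to 473.7 in the mutant, and stood at −0.35 ± 0.21 (adjusted p = 0.506), or −0.27 on mutant replicate 1. The cytochrome c assembly gene ccsA stood at 0.37 ± 0.25 and the intron maturase gene matK at −0.10 ± 0.30. Of the photosystem I assembly genes, ycf3 stood at −0.10 ± 0.25. The other, ycf4, read 330.8, 273.9 and 347 in the wild type and 253.1, 718.8 and 335 in the mutant, at 0.31 ± 0.40 with an interval from −0.67 to 1.29, made of −0.30 on mutant replicate 1 and 0.61 on replicates 2 and 3. The 18 members not picked by the naming rule, clpP, psbA, psbB and psbD among them, lay between −0.69 and 0.38, with adjusted p-values from 0.495 to 0.973.

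Counted over the whole set, the 3 mutant arrays all lay above the wild type in 7 members (12.7%) and all below it in 8 (14.5%), where all probe sets gave 11.2% and 11%. Both shares are near those over all probe sets. Among bright probe sets, with a mean intensity of 1000 or more as 33 of the members have, the shares over all probe sets were 21.1% and 21.2%. Of those 33 members, 3 lay above and 7 below. Mutant replicates 2 and 3 lay below the wild-type range with replicate 1 inside it in 6 members (10.9%, against 5.72% of all probe sets), namely psbK, psbC, cemA, psbJ, psbF and rpl36. They lay above it with replicate 1 inside in 5 members (9.09%, against 5.88%), namely rps16, rpl33, rpl20, ccsA and psaC. Mutant replicates 2 and 3 were at least 2-fold below the lowest wild-type array in 5 members (9.09%, against 2.27%), psbC, psbE, psbF, psaJ and rpl36, and at least 2-fold above the highest in 1, petN (1.82%, against 2.12%). On mutant replicate 1, 0 members were 2-fold below the lowest wild-type array, against 3.1% of all probe sets, and 1, petD, was 2-fold above the highest, against 3.65%. Among bright probe sets alone, the shares for replicates 2 and 3 were 7.39% below and 9.49% above the range with replicate 1 inside, and 3.77% and 2.92% for 2-fold below and above. Of the 33 bright members, 5 lay below and 2 above the range in this way, and 5 were 2-fold below and 0 2-fold above. These patterns were picked after the values were seen, and no test of the set was made.

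The direction also went with brightness. Of the 22 members with a mean intensity under 1000, 18 had estimates above 0, and of the 33 members at 1000 or more, 20 had estimates below 0. Over all probe sets no such lean was seen, with 9629 of 19458 estimates above 0 in the dim part and 1655 of 3288 below 0 in the bright part. The median log2 difference of the dim members was −0.06 on mutant replicate 1 and 0.34 on replicates 2 and 3. With the cut at the median of the members' mean intensities, 2012, the lean was weaker. There 19 of 27 dimmer members had estimates above 0 and 16 of 28 brighter ones had estimates below 0.

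The rule made no use of position, and the estimates were also read along the order of genes on the chromosome. In 10 groups of genes known to be transcribed together, holding 37 of the members, the lowest and the highest estimate differed by a median of 1.35 on the log2 scale, and 9 of the 10 groups held estimates of both signs. No spread was computed for genes that are not neighbours. The values therefore cannot say whether neighbours were more or less alike than other members. On mutant replicate 1 the median spread within a group was 0.35, and on replicates 2 and 3 it was 1.86. The spread was wider on replicates 2 and 3 in 9 of the 10 groups. The exception was the group of rps2 and 4 atp genes, with 1.00 on mutant replicate 1 and 0.96 on replicates 2 and 3.

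Single groups show this in detail. In psbD, psbC and psbZ, the estimate of psbC was −1.95 and those of its neighbours were 0.05 and 0.23. The psaJ gene, at −1.55, is followed by rpl33 and rps18, at 0.35 and 0.48. In the group of psbE, psbF, psbL and psbJ, the only group with all estimates below 0, the values were −1.49, −0.89, −0.33 and −0.20 in the order of transcription. In the group of psbB, psbT, psbH, petB and petD, the neighbours petB and petD stood at −0.71 and 1.75. This last spread of 2.45 was the widest of the 10, and it was 2.03 on mutant replicate 1 alone. It rests on the dim petD probe set, at 16.2 to 80.2 in the wild type.

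**Figure D4:**
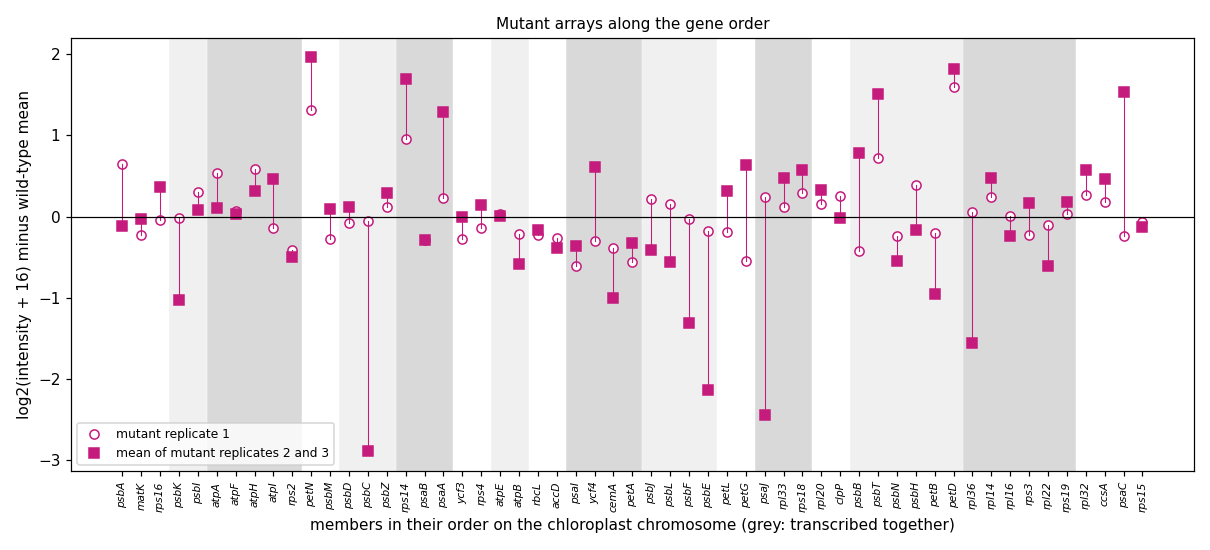
Members are placed in their order on the chloroplast chromosome, without scale, and grey bands mark genes transcribed together (psbN, inside the psbB band, is read from the other strand). Open circles give mutant replicate 1 and filled squares the mean of mutant replicates 2 and 3, as log2(intensity + 16) minus the wild-type mean; the longest lines stand at psbC, psaJ, psbE and psaC.

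The other chloroplast-encoded genes, 10 ndh and 4 rpo genes, gave 1 call in each direction, where 0.712% of all probe sets were called higher and 0.207% lower. The ndhF gene, for a subunit of the NADH dehydrogenase-like complex, rose by 3.02 ± 0.37 on the log2 scale (adjusted p = 0.0355) from a wild type at 3.83 to 13.4. The rpoC2 gene, for a subunit of the plastid-encoded polymerase, fell 2.37-fold, from 1347 to 1529 in the wild type to 553.3 to 607.3 in the mutant (adjusted p = 0.0493). Both stood apart on mutant replicate 1 as well, at 2.41 and −1.22. Every wild-type value of ndhF lay below the constant added before log2, and the size of its rise depended on that constant. With 1 added instead, the ndhF difference was 4.40 and the call was lost (limma adjusted p = 0.057). With 64 added it was 1.76 and the call was kept (0.0274). The rpoC2 gene lost its call with 1 added (0.0629) and with cyclic loess (0.0501), and kept it with 64 added (0.0216). With cyclic loess ndhF kept its call (0.0344). Without mutant replicate 1, ndhF kept its call (limma adjusted p = 0.0419) and rpoC2 lost it (0.0589). Without any other array both lost it (0.104 to 0.177). Those 5 leave-outs called 0 probe sets in all, so these losses say nothing about the genes. The ndh genes next in p were ndhD and ndhG at 1.31 ± 0.39 and 1.39 ± 0.58, and the rpo genes rpoB and rpoA at 1.72 ± 0.37 and 0.37 ± 0.26, none of which passed. Among nuclear partners of the members, only genes with a probe set that the annotation lists for that gene alone were read. These were 5 of 35 listed photosynthesis subunit genes and 3 of 18 light-harvesting genes. They also took in 3 of 22 plastid ribosomal protein genes and 1 of 21 plastid transcription factor genes. Whether the array holds the other listed genes was not checked. By limma 0 of these 12 passed over all probe sets, 8 had an unadjusted p under 0.05, all lower, and all 12 had estimates below 0, where 6.92% of all probe sets were lower at that p and 50.5% had estimates below 0. The 4 tissue markers, of which LHCB4.1 is also 1 of the 12, had estimates below 0 as well, and their part in these values was not tested.

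Nuclear and chloroplast genes of the same complexes can be set side by side. The nuclear photosystem I genes PSAE1 and PSAN stood at −0.78 ± 0.17 and −0.73 ± 0.19, and the nuclear photosystem II gene PSBY at −0.92 ± 0.21. The antenna genes LHCB4.1, LHCB4.2 and LHCB4.3 stood at −1.06, −1.56 and −0.03. Of the nuclear ribosomal genes PRPL3, PRPS6 and PRPS10 the estimates were −0.55, −0.55 and −0.65, and RPOTmp, a phage-type organelle polymerase, stood at −0.91 ± 0.62. On mutant replicate 1 the median was −0.66 over the 5 nuclear photosynthesis subunit genes and −0.44 over the 3 nuclear ribosomal genes, against −0.04 over the 33 chloroplast-encoded photosynthesis genes and 0.03 over the 15 chloroplast-encoded ribosomal genes. The difference between nuclear and chloroplast genes was not tested.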

How the data were processed

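The deposited values were linear intensities of 1-colour arrays, 1 for each probe set on each array. Sorted, the 6 columns were identical, so the authors had quantile normalized them. Which software summarized the probes, and with which background correction, is not given in the sources used here. Per the labels' protocols, biotinylated cRNA was prepared in the way Affymetrix sets as standard. No detection call stood beside the values, and the number of arrays limits the precision. The series calls the arrays biological replicates.

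Of 22810 probe sets, 64 controls were left out. Genes came from the platform annotation and from RefSeq's TAIR10.1 gene table, used only for names and gene order, since the array's build is not given. Mitochondrial genes were not analysed here. Values were transformed to log2(intensity + 16) and tested with limma 3.58.1 in R 4.3.3 (lmFit, eBayes), with genotype as the only term and Benjamini-Hochberg adjustment over all 22746 probe sets. Folds are of the intensity + 16 and understate changes of dim genes. The fit was tested on simulated data.

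The members, lists and alternatives were chosen with earlier results of these data known. Named were all members past the threshold, the 4 with the smallest p and that with the largest p of each stem (all where 4 or fewer), and 3 of each list. The genes psbA, psbB, psbD, psbJ, psbK, psbL, psbZ, rpl20, rpl33 and clpP were added after their values were seen. The grouping into transcription units is textbook knowledge, written down after the values were seen.

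Same-numbered arrays of both genotypes deviated together at correlations of 0.0045 to 0.0141, and the fit did not pair them. Correlations of differently numbered arrays are not given here, so these values cannot exclude shared batches.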

Additional observations from a re-analysis of the deposited data

Results flagged for a closer look

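Control probe sets and probe sets listed with both copies of a repeated gene took no part in the comparison. The 3′ to 5′ ratio averaged 16.9 for actin over the mutant arrays, above every wild-type array (2.17 to 2.66), and 1.48 for GAPDH, above 0.794 to 0.844. By array the GAPDH ratio was 0.996, 1.75 and 1.70 in mutant replicates 1, 2 and 3. The dim probe set of ycf2, a gene of the inverted repeat, averaged 194 over the mutant arrays, above every wild-type array (52.1, 116.3 and 118.4), but its mutant arrays read 3.67, 350.2 and 228, and the limma adjusted p was 0.958.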

How the results depend on the processing

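The counts of members higher and lower stayed at 0 and 0 with 1 or 64 added in place of 16, without the dimmest 30% of probe sets, with repeated quantile normalization, median centring, cyclic loess, array weights, averaged probe sets per gene, the replicate number as a block (0 and 0), and for mutant replicate 1 alone against the wild type. The last 2 settings called 0 probe sets in all, with 2769 and 2194 at an unadjusted p under 0.05, so their counts say nothing about stability. With a variance trend over intensity and a robust prior, which called 1459 probe sets in place of 209, 5 members were higher (petN, rps14, psbT, rpl32 and rpl14, adjusted p = 0.00146 to 0.0489) and 4 lower (atpB, petB, cemA and rpl22, 0.00347 to 0.0375). Without mutant replicate 1, 314 probe sets were called in place of 209, and 3 members were lower (psbC, psbE and psaJ, each at an adjusted p of 0.0419). This setting compares only mutant replicates 2 and 3, with their raised 3′ to 5′ control ratios, with the wild type. Over the 6 arrays left out in turn the counts ran from 0 to 0 higher and from 0 to 3 lower. The other 5 leave-outs called nothing at all (0 probe sets), although 2443 to 2594 had an unadjusted p under 0.05, so their counts say nothing either. The median over members ran from −0.03 to 0.09 in these. Among the 37 named members, estimates changed sign in 23 of 628 repeats over 13 genes, each at an adjusted p of 0.793 or more. With array weights these were atpE (−0.028) and psbH (−0.075). On mutant replicate 1 alone they were atpI (−0.14), petL (−0.19), psaJ (0.25), psaC (−0.24), rpl36 (0.058), rpl16 (0.0075), rps16 (−0.045), rps3 (−0.23) and ycf4 (−0.30). With 1 array left out in turn the estimates that changed sign ran from −0.082 to 0.065 for atpE, −0.076 to 0.31 for petL, −0.18 to 0.20 for psbH, −0.048 to 0.16 for rps3, −0.27 to 0.051 for ycf3, −0.11 to 0.61 for ycf4 and −0.27 to 0.18 for matK. The cause of these changes was not tested. With 3 arrays per genotype the median half-width of a 95% interval was 0.65 on the log2 scale, which limits what could be called, and a single array such as mutant replicate 1 is assumed to vary like the wild type.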

Other observations

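The inverted repeat, which holds a second copy of several chloroplast genes, had 8 probe sets listed with both copies of a gene, so they are not among the members. Of these, rpl23, for a large-subunit ribosomal protein, read 9936, 9198 and 9796 in the wild type and 8922, 3009 and 2125 in the mutant, at a log2 difference of −1.32 ± 0.54. Both probe sets of rps12, a gene whose mRNA is joined from separate transcripts, were also lowest on mutant replicates 2 and 3. The brighter read 6065, 5620 and 5363 in the wild type and 5969, 2769 and 3716 in the mutant. The dimmer read 666.8 to 784 in the wild type and 655.6, 319.5 and 403.1 in the mutant. The ribosomal genes rpl2 and rps7 lay at −0.29 ± 0.21 and −0.19 ± 0.20, and ycf1, for a large membrane protein, at 0.03 ± 0.20.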
